A study of Xenopus laevis with 28 samples.

Results

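The comparison described here is the step from the mid tailbud to the late tailbud embryo of the African clawed frog *Xenopus laevis*, from stage 30 to stage 35 of Nieuwkoop and Faber. Its members were chosen by their labelled stage, and they are 5 of the 28 libraries of the series, 2 of stage 30 and 3 of stage 35. Polyadenylated RNA was taken from minced whole embryos of the J strain, an inbred laboratory strain, with no treatment, mutation or transgene named. Embryos came from clutches labelled Taira and Ueno. Stage 30 has 1 library of each clutch, and stage 35 has 1 Taira library, 1 Ueno library and a second Ueno library from another Ueno series. How many embryos went into a library is not given in the sources used here. Libraries of stages 20 and 25 of both clutches entered the fit to estimate the spread, and stage 40 of the Taira clutch was used only to show where levels went next.

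Between these stages the tail grows out of a bud of progenitors at the posterior end, and the embryo hatches and turns into a swimming larva. The liver bud begins to secrete plasma proteins, blood cells fill with larval globins, lens fibres load crystallins, and retina and pigment cells differentiate. The larval epidermis, the cement gland that sticks the embryo to surfaces, the notochord and the embryonic kidney (pronephros) are older structures by then. The *X. laevis* genome is allotetraploid, so many genes exist as a pair of homeologs marked L (long chromosomes) and S (short chromosomes).

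Levels are the authors' TPM (a length-scaled share of each library's transcripts), and every TPM series below is given in the order Taira and Ueno of stage 30, then Taira, Ueno and second Ueno of stage 35. TPM keeps no read counts, so the depth behind a value is not known. A log2 change is the difference of log2(TPM + 1), stage 35 minus stage 30, with the standard error (SE) of the limma fit and a Benjamini-Hochberg adjusted p, and it understates the change of genes near 0 TPM. A model was called at an adjusted p under 0.05, and "rose" and "fell" are used of called models only.

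The 2 stage 35 Ueno libraries were closer to each other than any other pair of the series in abundant transcripts. Over 308 gene models with a mean TPM of at least 500, the SD of their log2 difference was 0.0949, the lowest of 378 library pairs, and the next was 0.161 for stages 8 and 9 of the Ueno series. The stage 35 Taira library differed from them by an SD of 0.633 and 0.634, and the 2 stage 30 libraries differed by 0.687. The titles of the Taira libraries of both stages carry the series number 201203, and that of stage 30 Ueno carries 201210. A difference between the clutches thus cannot be told apart from one between series. The 2 stage 35 Ueno libraries carry 201210 and 201302, which read as a year and month, and both are labelled as the Ueno clutch. The labels do not say whether they came from separate embryos, so their mean was counted as 1 sample (n = 2 clutches per stage). With the Ueno libraries as separate samples the counts of calls given below were 602 higher and 809 lower. They parted in weak transcripts: between 1 and 5 TPM the SD of their difference was 0.835, and the Ueno library listed 21243 models above 0 against 33096 in the second Ueno library and 30744 to 32199 in the other 3. Rank correlation over tested models placed stage 35 Taira nearest to stage 40 Taira (Spearman 0.964) and to the second Ueno library (0.941). The stage 35 Ueno library was at 0.914 with its second series, 0.875 with stage 30 Ueno and 0.871 with stage 35 Taira. The second Ueno library was nearest to stage 30 Ueno (0.946), above its values with both other stage 35 libraries.

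**Figure D1:**
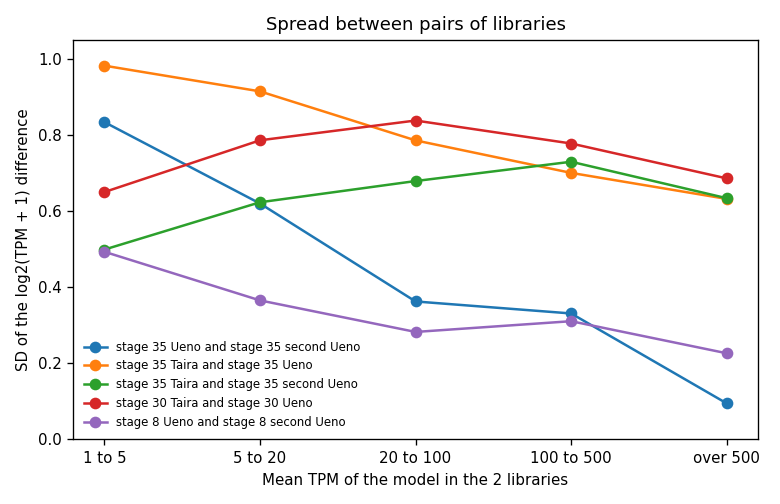
Spread between pairs of libraries, as the SD of the log2(TPM + 1) difference (y axis), in 5 classes of mean TPM (x axis). The 2 stage 35 Ueno libraries fall from 0.835 in the weakest class to 0.0949 above 500 TPM, while the pairs that cross clutches lie at 0.499 or above in each class shown.

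Of 22252 tested models (2 or more of the 5 libraries at 1 TPM or above), 683 were called higher at stage 35 (3.07%) and 793 lower (3.56%). A mean under 1 TPM at stage 30 was found in 238 of the higher calls, 0 of the lower and 1277 of all tested models. Such models passed the filter only with the help of stage 35 libraries and could hardly be called lower, so shares of rises depend in part on the filter. All 1476 called models changed in the same direction in both clutches. Changes of more than 2-fold made up 605 of the higher and 446 of the lower calls. The groups did not overlap, with all 3 stage 35 libraries above both stage 30 libraries, in 1625 models (7.3%), and with all 3 below in 2962 (13.3%). Of the called models, 618 of the higher and 588 of the lower did not overlap in that sense. Genes named below for the largest changes had to be free of overlap, so for them that trait was fixed by the naming rule. The calls rest on matching libraries by clutch: without the clutch block limma called 2 higher (hbd.L and ttr.S) and 0 lower, with 821 rises and 457 declines below 0.05 before adjustment of p. They also rest on both stage 30 libraries, since 10 higher and 1 lower were called without stage 30 Taira and 49 and 26 without stage 30 Ueno.

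The balance of rises and falls depends on how libraries are scaled. In TPM 46.3% of the calls were higher, against 75.8% after median-of-ratios scaling (1201 higher, 384 lower) and 62.3% after quantile normalization (896 and 542). The median log2 change of all tested models was -0.19 in TPM, 0.02 after median-of-ratios scaling and -0.06 after quantile normalization, so list medians below are to be read against -0.19. Counts of list members called are to be read against the 3.07% higher and 3.56% lower of all tested models. Of the 120 called models that the naming rule picked, 105 kept their call under median-of-ratios scaling and 110 under quantile normalization, and none reversed in either. Other settings kept fewer: 89 with a pseudocount of 5, 85 with all staged libraries except the one labelled stage 40 Ueno, 79 with no filter. Without the clutch block only 2 kept their call. Most of the 120 also lost it when either stage 30 library was left out, which leaves that stage with a lone library.

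**Figure D2:**
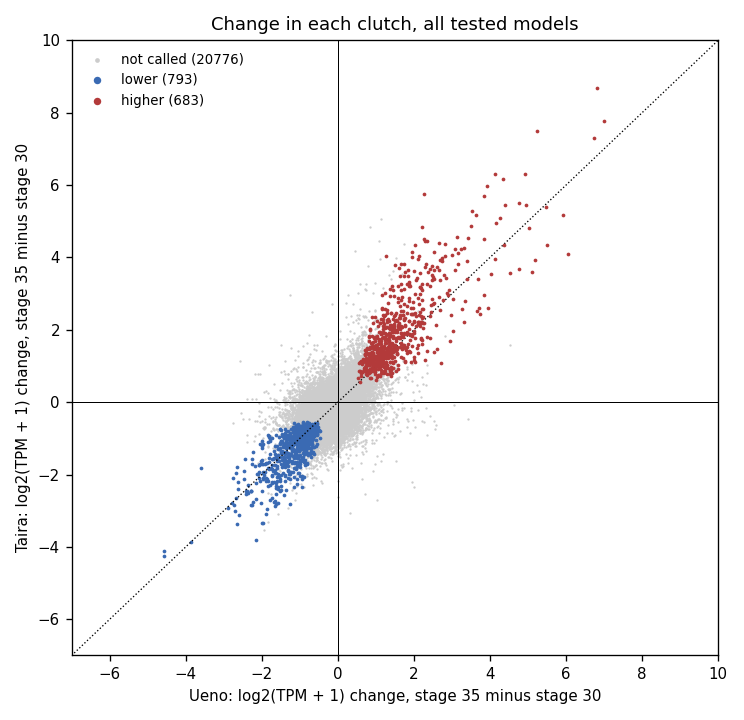
Log2(TPM + 1) change from stage 30 to stage 35 in the Ueno clutch (x axis, mean of its 2 stage 35 libraries) against the Taira clutch (y axis), 1 point per tested model. The 683 models called higher (red) and 793 called lower (blue) lie at the upper right and the lower left, and the dotted line marks equal change.

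Across all 22252 tested models the changes in the 2 clutches correlated by 0.672, a description across models, which are not independent replicates. The same direction in both clutches for the called models is in part fixed by the call itself, which asks for a change shared by the clutches. The median change of the 683 higher calls was 1.62 in Taira and 1.36 in Ueno, and 510 of them (74.7%) changed more in Taira, against 53.7% of all tested models. For the 793 lower calls the medians were -1.07 and -1.02, and 445 of them (56.1%) changed more in Taira, close to the share of all models. A further limma term compared the Taira to Ueno difference at stage 35 with its mean over stages 20, 25 and 30. It is thus not the difference of the change from stage 30 alone. No model was called for this term (0 of 22252), although 4476 had an unadjusted p under 0.05. The count was 35 with a pseudocount of 5 and 74 without a filter on low values. A count of 0 does not show that the clutches agreed, since large terms were not called. Those of fabp1.S (2.43 ± 0.30) and ttr.L (1.71 ± 0.39), Taira above Ueno, each had a limma adjusted p of 0.205. The rises were mostly under way before stage 30 and went on afterwards: 90.5% of the higher calls were higher at stage 30 than at stage 25, against 37.1% of all tested models. In the Taira clutch 74.5% of them were higher still at stage 40 than at stage 35, against 23.3% of all. Of the lower calls 11.7% and 6.68% were. The stage 30 libraries are shared by the changes before and after that stage, as stage 35 Taira is, so those shares are a description.

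**Figure D3:**
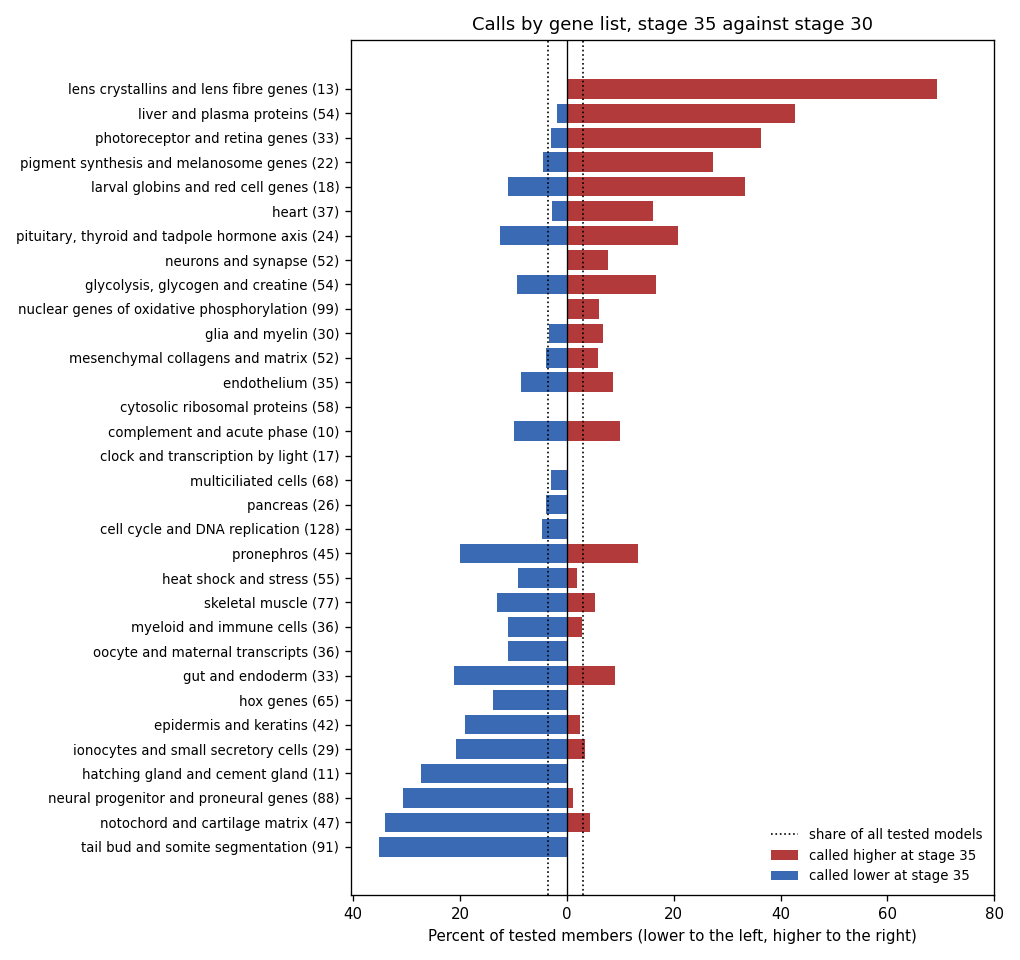
Percent of the tested members of each gene list (number in brackets) called higher at stage 35 (red, right) and lower (blue, left), with dotted lines at the shares of all tested models (3.07% and 3.56%). Lens, liver, retina, globin and pigment lists lie to the right, and tail bud, notochord, neural progenitor and gland lists to the left.

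Liver and plasma protein genes held several of the largest rises. Of 54 tested members 23 rose and 1 fell, against 3.07% and 3.56% of all models, and the list's median change was 1.1. Without the filter 13 of 69 rose and none fell, with a median of 0.86. In whole embryos, more cells of a type and more RNA per cell cannot be told apart, here or in any list below. The thyroid hormone and retinol-binding protein carrier transthyretin led: ttr.L (Xelaev18031959m) was at 1.64 and 0.44 TPM, then 1076, 163 and 160.2 TPM, and ttr.S (Xelaev18033680m) at 6.43 and 5.14 TPM, then 1609, 710.2 and 844 TPM. Both copies went from a few TPM or less to far higher levels in all 3 stage 35 libraries, with the Taira library highest and no overlap. The log2 change was 7.75 ± 0.47, adjusted p = 0.0031 for ttr.L and 7.37 ± 0.32, adjusted p = 0.00073 for ttr.S. Both copies were higher still at stage 40 Taira, at 4665 and 5489 TPM.

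Apolipoprotein A1, the main protein of high-density lipoprotein, was at 20.1 and 12.0 TPM, then 1509, 270.2 and 255 TPM for apoa1.S (Xelaev18037384m), a change of 5.25 ± 0.43, adjusted p = 0.00458. The stage 35 Taira library was several times above the Ueno pair, which in turn lay far above both stage 30 libraries. Its homeolog apoa1.L was already at 90.6 and 71.9 TPM at stage 30 and reached 2088, 1040.3 and 1053 TPM (4.18 ± 0.20, adjusted p = 0.000862). Fibrinogen, the clotting protein made of alpha, beta and gamma chains, rose in each chain: fgg.S (Xelaev18009208m) was at 3.38 and 0.5 TPM, then 198, 41.6 and 38.0 TPM (5.14 ± 0.52, adjusted p = 0.00566). The beta chain fgb.S was at 3.85 and 0.72 TPM, then 50.0, 20.1 and 22.2 TPM (3.54 ± 0.38, adjusted p = 0.00683), and the alpha chain fga.S changed by 2.94 ± 0.45, adjusted p = 0.0174. In all of these Taira was highest and no library of stage 35 overlapped stage 30. The protease inhibitor fetuin B (fetub.L, Xelaev18027507m) was at 27.2 and 5.66 TPM, then 568, 133 and 139.8 TPM (4.35 ± 0.36, adjusted p = 0.00463), and here the 2 clutches changed alike, by 4.34 and 4.37. The vitamin D carrier gc.S (Xelaev18009513m) was at 0.82 and 0.28 TPM, then 78.8, 23.1 and 28.4 TPM (4.92 ± 0.36, adjusted p = 0.0037).

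Other liver genes rose as well. They include the cell-adhesive plasma protein vitronectin (vtn.L, 2.75 ± 0.37, adjusted p = 0.0125), the clotting factors f13b-like.L (3.09 ± 0.50, adjusted p = 0.0203), f2.L, which is prothrombin (1.07 ± 0.20, adjusted p = 0.0302), and proc.S, which is protein C (1.62 ± 0.35, adjusted p = 0.0456). Apolipoprotein E (apoe.L) was at 44.6 and 20.1 TPM, then 252, 75.4 and 93.3 TPM (2.24 ± 0.25, adjusted p = 0.00698). The fall in the list was arg1.L, arginase of the urea cycle, at 78.8 and 34.8 TPM, then 28.7, 26.9 and 14.1 TPM (-1.08 ± 0.20, adjusted p = 0.0314). Of 10 tested complement and acute phase genes 1 rose and 1 fell (10% each in a short list, against 3.07% and 3.56% of all models). The lectin pathway protease masp2.L overlapped between the stages at 0.95 and 0.13 TPM, then 3.22, 3.63 and 0.54 TPM (1.28 ± 0.22, adjusted p = 0.0231), and it was not called with the Ueno libraries as separate samples. The complement 8 gamma chain c8g.S was at 116 and 152 TPM, then 57.4, 94.3 and 87.2 TPM (-0.87 ± 0.19, adjusted p = 0.0487), and that call was lost under both scalings.

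**Figure D4:**
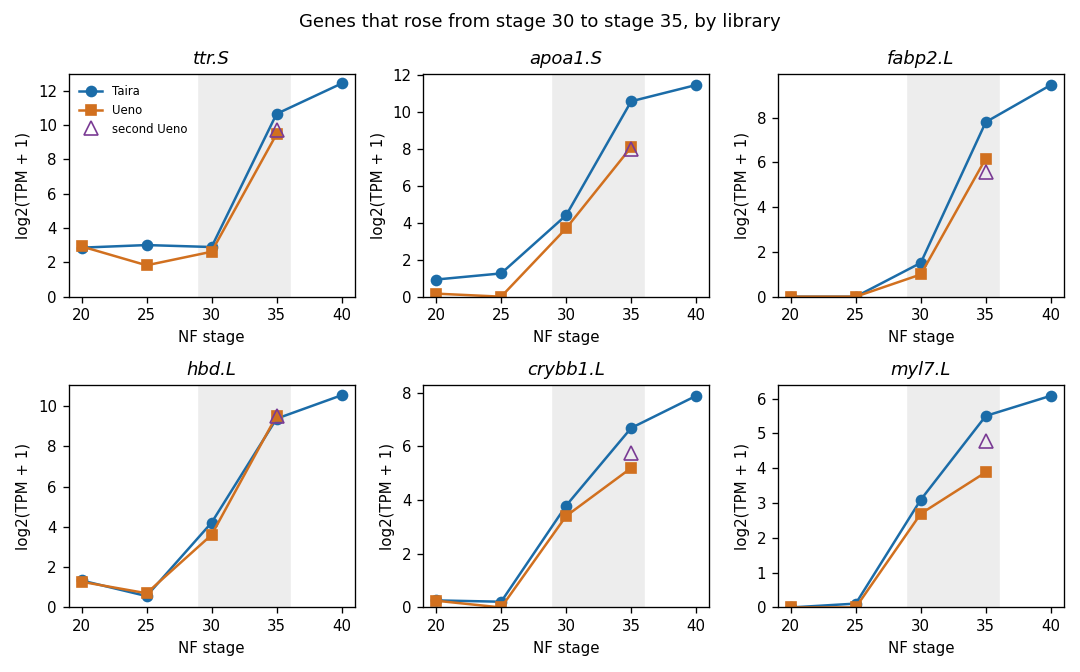
Log2(TPM + 1) (y axis) from NF stage 20 to stage 40 (x axis) of 6 genes that rose from stage 30 to stage 35 (grey band), in the Taira libraries (blue circles), the Ueno libraries (orange squares) and the second Ueno library (purple triangle). In each panel all stage 35 values lie above both stage 30 values, and the Taira line goes on upward at stage 40.

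In the gut and endoderm list 3 of 33 tested members rose and 7 fell, with a median of -0.67. With all staged libraries except the one labelled stage 40 Ueno in the fit, 5 members were called higher and 0 lower. The 3 rises were fatty acid-binding proteins of absorptive cells. Intestinal fabp2.L (Xelaev18005684m) was at 1.85 and 0.99 TPM, then 223, 71.3 and 47.3 TPM (5.61 ± 0.46, adjusted p = 0.00462), liver-type fabp1.L (Xelaev18004989m) at 0.21 and 0.61 TPM, then 61.5, 21.8 and 22.4 TPM (4.77 ± 0.46, adjusted p = 0.00552) and fabp1.S at 0 and 0.24 TPM, then 27.5, 6.39 and 3.01 TPM (3.52 ± 0.61, adjusted p = 0.0248). Each was close to 0 in both stage 30 libraries and highest in stage 35 Taira. Outside the list, the intestinal retinol-binding protein rbp2.L was at 1.35 and 1.00 TPM, then 146, 22.4 and 36.5 TPM (4.95 ± 0.59, adjusted p = 0.00883), and mogat1-like.1.L, named after an enzyme of triglyceride resynthesis, at 0.27 and 0.65 TPM, then 20.9, 11.7 and 15.5 TPM (3.63 ± 0.27, adjusted p = 0.0037). Both were under 1.5 TPM at stage 30 and above 10 TPM in all 3 later libraries. The falls were the caudal homeobox genes cdx4.L (12.6 and 2.01 TPM, then 1.30, 0 and 0.27 TPM; -1.99 ± 0.37, adjusted p = 0.0301), cdx2.L and cdx2.S, the endoderm regulators sox17a.S, sox17b.1.S and gata6.S, and the adhesion molecule epcam.L, with log2 changes between -0.83 and -1.99. In the pancreas list 1 of 26 members was called, a fall (3.85%, near the 3.56% of all models). The peptide hormone somatostatin, sst.L, was at 42.9 and 81.9 TPM, then 18.4, 39.0 and 27.9 TPM (-1.22 ± 0.14, adjusted p = 0.00755), lower in every stage 35 library than in either stage 30 library. The endocrine regulator insm1.L, at 36.7 and 52.5 TPM, then 30.2, 37.5 and 36.9 TPM, was not called (-0.38 ± 0.15, adjusted p = 0.17).

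Among 18 tested globin and red cell genes 6 rose and 2 fell, and the main globins reached similar levels in the Ueno and Taira libraries. The beta-type globin hbd.L (Xelaev18045080m) was at 17.4 and 11.1 TPM, then 659, 726 and 734 TPM (5.54 ± 0.23, adjusted p = 0.00073). Its homeolog hbd.S was already at 185 and 104 TPM at stage 30 and reached 1108, 977 and 1027 TPM (2.92 ± 0.55, adjusted p = 0.0319). The alpha-type hba-l5.Sp was at 12.2 and 4.91 TPM, then 79.1, 101 and 77.5 TPM (3.27 ± 0.36, adjusted p = 0.00701). In each the 3 stage 35 libraries were close to each other and well above stage 30. The Rh membrane protein rhd.S (1.39 and 0.39 TPM, then 6.23, 3.01 and 4.95 TPM; 1.72 ± 0.20, adjusted p = 0.00853), the erythroid transcription factor gata1.S (1.06 ± 0.20, adjusted p = 0.0332) and hba1.L (1.14 ± 0.21, adjusted p = 0.0285) rose at low levels. The falls were the embryonic zeta-type globin hbz.L, at 5.37 and 4.84 TPM, then 1.38, 1.65 and 1.19 TPM (-1.35 ± 0.18, adjusted p = 0.0117), and carbonic anhydrase ca2.S, at 90.3 and 75.5 TPM, then 31.5, 35.7 and 37.7 TPM (-1.26 ± 0.23, adjusted p = 0.0302). Globin models are similar in sequence, so how RSEM shared reads among them is uncertain.

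In the eye lists nearly all calls were rises. Of 13 tested lens genes 9 rose and none fell (median 2.06, against -0.19 for all models). The file held 29 lens models, and a gene near 0 at stage 30 could pass the filter through its stage 35 libraries alone. Without the filter 4 of 26 rose and none fell, with a median of 0.22 against -0.08 for all models. The fibre cell water channel mip.L was at 0.39 and 0.28 TPM, then 14.6, 2.99 and 4.14 TPM (2.66 ± 0.45, adjusted p = 0.0236), and mip.S at 0.46 and 0.41 TPM, then 13.6, 4.92 and 3.46 TPM (2.60 ± 0.41, adjusted p = 0.019). Crystallins, the refractive proteins of the fibre, were stronger: crybb1.L (Xelaev18007505m) was at 12.9 and 9.60 TPM, then 102, 35.6 and 53.2 TPM (2.49 ± 0.30, adjusted p = 0.00891) and crybb1.S at 11.3 and 9.18 TPM, then 97.4, 40.7 and 40.5 TPM (2.52 ± 0.32, adjusted p = 0.0108). Stage 35 Taira was highest in all 4, and no stage 35 library overlapped stage 30. Both homeologs of cryba1 (1.88 and 1.93) and cryba4 (2.46 and 2.06) and the gamma crystallin crygb.L (2.25) also rose. The lens regulators in the list, foxe3.S (-0.34), maf.L (1.02), maf.S (0.06) and prox1.S (0.02), were not called.

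Of 33 tested photoreceptor and retina genes 12 rose and 1 fell (median 0.70). The file held 69 models of this list. Without the filter 10 of 66 rose and 0 fell, with a median of 0.17 against -0.08 for all models. Cone and rod transduction genes went from about 1 TPM or less to several: the cone transducin subunit gngt2.S was at 0.87 and 0.5 TPM, then 27.2, 3.33 and 13.9 TPM (3.3 ± 0.40, adjusted p = 0.0091), and the red cone opsin opn1lw.1 at 0.68 and 1.07 TPM, then 18.8, 9.57 and 6.86 TPM (2.86 ± 0.35, adjusted p = 0.00917). The calcium sensor recoverin, rcvrn.2.S, was at 1.04 and 0.12 TPM, then 12.6, 6.25 and 4.68 TPM (2.63 ± 0.34, adjusted p = 0.0113), and the rod transducin gnat1.L at 0.2 and 0.16 TPM, then 7.78, 3.52 and 2.95 TPM (2.37 ± 0.31, adjusted p = 0.0117). All 4 were higher in each stage 35 library than in both stage 30 libraries, but none would have passed the filter on stage 30 alone. The photoreceptor transcription factor crx.S, at 14.9 and 7.96 TPM, then 40.2, 17.2 and 21.9 TPM, was already expressed at stage 30 and rose by less (1.29 ± 0.23, adjusted p = 0.0284). The visual cycle genes rlbp1.L, rlbp1.S, rgr.1 and rgr.L rose by 1.40 to 2.14. In that group rpe65.S, the retinoid isomerase of pigment epithelium, fell from 57.2 and 23.4 TPM to 15.1, 11.5 and 9.33 TPM (-1.47 ± 0.25, adjusted p = 0.0226). The eye field genes rax.L (-0.83, adjusted p = 0.0669) and rax.S (-0.89, adjusted p = 0.0618) were not called.

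Pigment genes rose in 6 of 22 tested members and fell in 1 (median 0.66). The melanin enzyme tyrosinase, tyr.S, was at 25.4 and 23.4 TPM, then 78.0, 59.6 and 61.5 TPM (1.46 ± 0.21, adjusted p = 0.016), and tyrp1.L at 22.9 and 4.93 TPM, then 77.8, 27.8 and 25.1 TPM (1.97 ± 0.40, adjusted p = 0.0393). The melanosome channel protein oca2.L (1.13 and 0.24 TPM, then 5.42, 4.46 and 1.70 TPM; 1.66 ± 0.22, adjusted p = 0.0119), mlana-like.L (1.43 ± 0.24, adjusted p = 0.0237) and both homeologs of the melanosome fibril gene pmel-like (1.2 and 1.26) rose as well. In tyr.S the 5 values fell into 2 separate groups, whereas in tyrp1.L the lowest stage 35 value was only just above stage 30 Taira. The fall was rab32.L, a trafficking GTPase, whose values overlapped (-1.09 ± 0.22, adjusted p = 0.0387). Tyrosinase and tyrp1.L had levelled off by stage 40 Taira, at 72.4 and 74.8 TPM.

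Heart genes rose in 6 of 37 tested members and fell in 1 (median 0.22). The atrial myosin light chain myl7.L (Xelaev18018643m) was at 7.55 and 5.47 TPM, then 44.4, 13.8 and 26.3 TPM (2.06 ± 0.30, adjusted p = 0.0157), and myl7.S at 10.6 and 6.05 TPM, then 31.7, 12.8 and 18.0 TPM (1.36 ± 0.24, adjusted p = 0.0249). Both rose in each clutch, with the Ueno library lowest of the 3 at stage 35. The membrane protein gene bves, which binds cyclic AMP in heart and muscle, rose in both copies, bves.L at 0.84 and 0.08 TPM, then 4.46, 2.26 and 1.69 TPM (1.52 ± 0.24, adjusted p = 0.0203) and bves.S with overlap at 1.16 and 0.4 TPM, then 4.69, 2.16 and 1.02 TPM (1.14 ± 0.23, adjusted p = 0.0381). Rises of myl4.L (0.93) and tnnt2.L (1.03) and the fall of gata6.S (-0.93) complete the list.

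Skeletal muscle genes were called in both directions. Of 77 tested members 4 rose (5.19%, against 3.07% of all models) and 10 fell (13%, against 3.56%). The counts became 8 and 6 under median-of-ratios scaling and 5 and 8 under quantile normalization. The median was -0.20 in Taira and 0.04 in Ueno. The calcium-binding protein of fast fibres, parvalbumin pvalb.1.S (Xelaev18047605m), was at 0.54 and 1.21 TPM, then 32.9, 10.8 and 9.78 TPM (3.41 ± 0.47, adjusted p = 0.013), and the muscle creatine kinase ckm.L at 1309 and 1777 TPM, then 2910.4, 3040.1 and 3107 TPM (0.97 ± 0.16, adjusted p = 0.0214). Its weaker copy ckm.S (1.5 ± 0.26, adjusted p = 0.0236) and the sarcomere protein gene myoz1.S (1.27) were the other rises. All 3 later libraries exceeded the earlier 2 in these 4. The falls included the myogenic factors myod1.S, at 156 and 218 TPM, then 67.0, 122 and 104 TPM (-1.07 ± 0.14, adjusted p = 0.0112), myf5.L (-1.09) and myf5.S (-1.02). The fetal acetylcholine receptor subunit chrng.1 was at 83.8 and 66.9 TPM, then 27.9, 31.9 and 26.8 TPM (-1.36 ± 0.16, adjusted p = 0.00891), and cav3.2.L, a caveolin 3 model of the muscle membrane, at 21.1 and 14.4 TPM, then 4.02, 2.98 and 2.92 TPM (-2.05 ± 0.26, adjusted p = 0.00955). The glycogen phosphorylase pygm.S was at 420.1 and 139 TPM, then 104, 49.5 and 47.7 TPM (-1.75 ± 0.16, adjusted p = 0.00501), lower at stage 35 within each clutch, with stage 30 Taira far above the other 4 libraries.

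Of 52 tested neuron and synapse genes 4 rose and none fell (median 0.50), and the count of rises was 12 under median-of-ratios scaling and 10 under quantile normalization. Without the filter 1 of 95 rose, with a median of 0.17. The GABA-synthesising gad2.L was at 0.41 and 0.4 TPM, then 3.58, 1.61 and 1.32 TPM (1.26 ± 0.27, adjusted p = 0.0452). It was under 0.5 TPM in each stage 30 library and above 1 in each stage 35 library. The endoplasmic reticulum protein gene rtn1.S (1.31) and the endosomal nsg1.S (1.03, with overlap) rose too. Of 88 neural progenitor and proneural genes 1 rose and 27 fell (median -0.56), which is 30.7% of them, with 14 and 16 falls under the 2 scalings and 6 when all staged libraries except the one labelled stage 40 Ueno set the spread. The proneural factor neurog1.L was at 30.6 and 18.4 TPM, then 10.5, 4.66 and 9.23 TPM (-1.37 ± 0.17, adjusted p = 0.00923), olig4.L at 3.02 and 2.47 TPM, then 0.59, 0 and 0.16 TPM (-1.51 ± 0.22, adjusted p = 0.0147) and the progenitor factor sox3.S at 118 and 121 TPM, then 44.9, 45.7 and 47.5 TPM (-1.36 ± 0.14, adjusted p = 0.00566). In these 3 no stage 35 value reached a stage 30 value. The Notch target hes5.2.S overlapped across clutches, at 11.6 and 2.30 TPM, then 2.58, 0 and 0.98 TPM (-1.48 ± 0.32, adjusted p = 0.0453). Further falls in the list, named after their values were seen, were both copies of the receptor notch1 (-1.19 and -1.14), of the ligand dll1 (-1.04 and -1.1), of the target hey1 (-0.88 and -0.83) and of the modifier lfng (-0.84 and -0.72). The rise was fabp7.L, the fatty acid-binding protein of radial glia, at 203 and 48.2 TPM, then 694, 219.8 and 223 TPM (1.97 ± 0.24, adjusted p = 0.00891). In the glia and myelin list 2 of 30 rose, apoe.L and gpm6a.L (0.96 ± 0.21, adjusted p = 0.048, with overlap), and olig2.S fell (-0.75 ± 0.16, adjusted p = 0.0453), the last a call lost under both scalings. Those shares are 6.67% and 3.33%, against 3.07% and 3.56% of all models.

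The tail bud and somite segmentation list had the highest share of falls of the 32 lists. Of 91 tested members 32 fell and none rose, or 35.2% against 3.56% of all models, with a median of -0.76. The presomitic mesoderm factor mesogenin, msgn1.L (Xelaev18028085m), was at 20.5 and 7.61 TPM, then 2.90, 0 and 1.56 TPM (-2.37 ± 0.18, adjusted p = 0.0041). The posterior signal wnt8a.L was at 6.03 and 2.23 TPM, then 0.37, 0 and 0.1 TPM (-1.99 ± 0.31, adjusted p = 0.019), and the segment boundary gene ripply2.1.S at 7.98 and 6.15 TPM, then 1.74, 0 and 1.61 TPM (-1.85 ± 0.20, adjusted p = 0.00665). All 3 were listed at 0 in the stage 35 Ueno library, which lists fewer weak transcripts, but were also under both stage 30 values in the other 2 stage 35 libraries. Without that library 30 members fell and none rose. Brachyury, the T-box factor of axial progenitors, fell in both copies, t.L from 10.3 and 4.88 TPM to 2.46, 0 and 0.98 TPM (-1.85 ± 0.23, adjusted p = 0.0105) and t.S by 1.24 on the log2 scale. The growth factor fgf20 (-1.05 and -1.17), the receptor fgfr1 (-0.99 in both copies) and the RNA-binding lin28a.L (-1.40 ± 0.24, adjusted p = 0.0227) were among the others. The count of falls was 21 after median-of-ratios scaling, with 1 rise, and 23 after quantile normalization, and 9 when all staged libraries except the one labelled stage 40 Ueno set the spread.

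**Figure D5:**
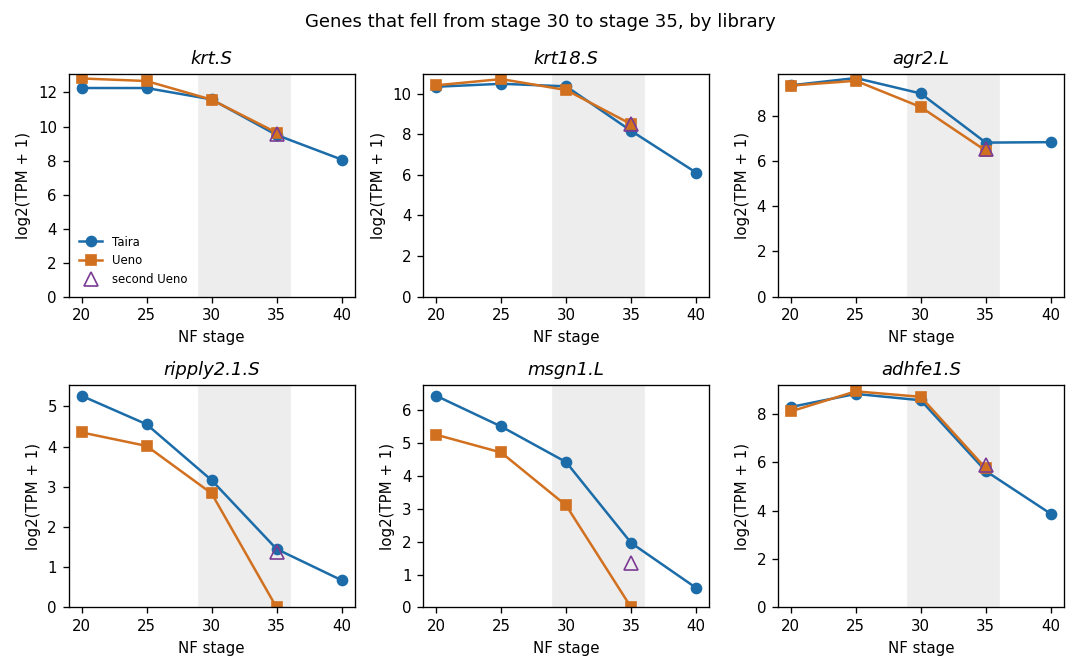
Log2(TPM + 1) (y axis) from NF stage 20 to stage 40 (x axis) of 6 genes that fell from stage 30 to stage 35 (grey band), in the Taira libraries (blue circles), the Ueno libraries (orange squares) and the second Ueno library (purple triangle). All stage 35 values lie under both stage 30 values, and msgn1.L and ripply2.1.S are listed at 0 in the stage 35 Ueno library.

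Hox genes, which give posterior identity, fell in 9 of 65 tested members and rose in none (median -0.60). The trunk genes hoxb9.S (33.8 and 43.9 TPM, then 8.87, 26.2 and 13.4 TPM; -1.46 ± 0.20, adjusted p = 0.0133) and hoxb8.S (19 and 14.0 TPM, then 5.42, 6.36 and 5.92 TPM; -1.35 ± 0.21, adjusted p = 0.0183) were lower in all 3 stage 35 libraries. The weaker hoxa7.L (7.99 and 2.93 TPM, then 1.73, 0 and 1.06 TPM; -1.54 ± 0.31, adjusted p = 0.0371) was not called with the Ueno libraries as separate samples. Both copies of hoxb7, hoxb2.L, hoxc3.S and hoxa10.L also fell, by log2 changes between -0.84 and -1.15. Under the 2 scalings 5 and 6 hox genes fell.

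Notochord and cartilage matrix genes fell in 16 of 47 tested members and rose in 2 (median -0.60). The falls include the abundant keratin krt18.S, which is also counted among the epidermis and keratin genes below. The minor cartilage collagen col9a1.S (Xelaev18029475m) was at 33.5 and 25.2 TPM, then 9.00, 0.93 and 5.41 TPM (-2.22 ± 0.29, adjusted p = 0.0112), and the matrix protein matn2.L at 11.8 and 4.77 TPM, then 0.64, 0.8 and 0.35 TPM (-2.42 ± 0.46, adjusted p = 0.0318). The membrane protein caveolin 2, cav2.S, was at 39.5 and 7.52 TPM, then 5.15, 1.83 and 1.58 TPM (-2.19 ± 0.28, adjusted p = 0.0104). All stage 35 values of these 3 lay under both stage 30 values. The notochord homeobox gene not.S (-1.29 ± 0.20, adjusted p = 0.0181) and both copies of the hyaluronan link protein hapln3 (-1.04 and -0.60) fell too. The rises were the cartilage regulator nkx3-2.L (3.41 and 4.69 TPM, then 9.16, 10.5 and 9.16 TPM; 1.07 ± 0.20, adjusted p = 0.0293) and col11a1-like.L (1.29 ± 0.28, adjusted p = 0.0449). Of 52 tested mesenchymal collagen and matrix genes 3 rose (5.77%) and 2 fell (3.85%), against 3.07% and 3.56% of all models. The 3 rises were fibrillar collagens. Type I collagen col1a2.S was at 3.69 and 5.97 TPM, then 43.8, 29.3 and 33.3 TPM (2.73 ± 0.28, adjusted p = 0.00556), col1a2.L at 66.7 and 121 TPM, then 236, 234 and 245 TPM (1.39 ± 0.22, adjusted p = 0.0199; not called under quantile normalization) and type III collagen col3a1.S at 7 and 8.41 TPM, then 34.6, 27.1 and 23.6 TPM (1.82 ± 0.24, adjusted p = 0.0117). The collagen cross-linking enzyme loxl2.S, at 10.9 and 7.74 TPM, then 2.64, 0.59 and 2.06 TPM, fell (-1.81 ± 0.19, adjusted p = 0.00603), as did lama1-like.L (-0.82 ± 0.18, adjusted p = 0.0489).

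Simple keratins of the embryonic epidermis fell from high levels. Of 42 tested epidermis and keratin genes 8 fell and 1 rose (median -0.47). The model krt.L (Xelaev18043105m) was at 567 and 544 TPM, then 82.8, 105 and 124 TPM (-2.50 ± 0.17, adjusted p = 0.00361) and krt.S at 3093 and 3056 TPM, then 725, 796 and 761 TPM (-2.03 ± 0.20, adjusted p = 0.00556). Keratin 18, which is also made by the notochord, was at 1318 and 1162 TPM, then 287, 361 and 360.3 TPM in krt18.S (-1.94 ± 0.17, adjusted p = 0.00501). In these 3 the libraries of a stage agreed closely and the stages were far apart. The falls of krt18.L (-1.74), krt8.S (-1.80), krt8.L (-1.40), krt12.S (-1.02) and the urothelial plaque gene upk3a.L (-1.12) complete the list. The rise was krt15-like.L (Xelaev18043113m), a type I keratin at 1.27 and 1.18 TPM, then 41.3, 18.4 and 16.6 TPM (3.65 ± 0.34, adjusted p = 0.00501). At stage 40 Taira krt.L had reached 8.67 TPM and krt15-like.L 88.2 TPM. Keratin models are similar in sequence, so their split of reads is uncertain. The summed TPM of the list was 23983 and 31716 at stage 30 and 13279.8, 15917 and 15949 at stage 35.

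In the gland list, of 11 tested hatching and cement gland genes 3 fell and none rose. The cement gland disulfide isomerase agr2.L (Xelaev18030964m) was at 503 and 332 TPM, then 111, 86.3 and 91.1 TPM (-2.03 ± 0.18, adjusted p = 0.00491) and agr2.S at 351 and 223 TPM, then 142, 66.2 and 84.9 TPM (-1.42 ± 0.16, adjusted p = 0.00712). Both were lower in all stage 35 libraries. Ionocyte and small secretory cell genes fell in 6 of 29 and rose in 1. The calpain proteases capn8.L, at 14.8 and 4.39 TPM, then 1.86, 0 and 0.68 TPM (-2.24 ± 0.20, adjusted p = 0.00501), and capn8.S, at 8.88 and 4.96 TPM, then 1.09, 0 and 0.66 TPM (-2.20 ± 0.18, adjusted p = 0.00463), fell to under 2 TPM in each stage 35 library. The ionocyte regulator foxi4.2.L fell at low levels (-1.63 ± 0.32, adjusted p = 0.0351; not called under median-of-ratios scaling), and the ammonia transporter rhbg.L rose (1.12 and 1.08 TPM, then 7, 4.61 and 3.88 TPM; 1.63 ± 0.24, adjusted p = 0.0156). Of 68 multiciliated cell genes 2 fell (2.94%, under the 3.56% of all models), tekt3.S (-0.99) and dnali1.S (-0.97), and none under median-of-ratios scaling. Yet only 2 of the 68 had a positive change in TPM, with a median of -0.415 against -0.19 for all models. In TPM 18 were lower with an unadjusted p under 0.05 in limma.

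In the pronephros list 9 of 45 tested members fell and 6 rose (6 and 7 under median-of-ratios scaling). The sodium-glucose cotransporter slc5a1.2.L (Xelaev18007589m) was at 33.4 and 19.9 TPM, then 4.25, 5.05 and 5.18 TPM (-2.24 ± 0.33, adjusted p = 0.0155). Its relative slc5a2.L, the high-capacity transporter of the proximal tubule in mammals, was at 2.57 and 4.68 TPM, then 11.4, 26.0 and 30.0 TPM (2.07 ± 0.24, adjusted p = 0.0085) and slc5a11-like.L at 0.13 and 0.63 TPM, then 3.84, 4.82 and 4.30 TPM (1.93 ± 0.22, adjusted p = 0.00772). Within 1 gene family the stages were thus separated in both directions with no overlap. The sodium pump regulator fxyd2.S was at 5.92 and 4.40 TPM, then 18.3, 47.6 and 16.2 TPM (2.04 ± 0.42, adjusted p = 0.0391), with the Ueno library far above the other 2, and was not called with the Ueno libraries as separate samples. The kidney regulators osr2.L (-1.02), osr2.S (-1.39) and pax8.L (-0.99) fell.

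Of 35 tested endothelial genes 3 rose and 3 fell (8.57% each, against 3.07% and 3.56% of all models). The progenitor ETS factor etv2.L was at 21.2 and 23.1 TPM, then 4.37, 9.44 and 7.10 TPM (-1.71 ± 0.20, adjusted p = 0.00839) and etv2.S at 34.0 and 30.6 TPM, then 12.6, 10.3 and 12.2 TPM (-1.37 ± 0.16, adjusted p = 0.00839). The sinusoidal scavenger receptor stab2.L was at 2.60 and 0.74 TPM, then 15.7, 5.89 and 5.95 TPM (2.1 ± 0.33, adjusted p = 0.0186), and the junction protein cldn5.S rose as well (1.25 ± 0.17, adjusted p = 0.0117). The lymphatic hyaluronan receptor lyve1.L had 0 TPM in the stage 30 libraries, against 1.89, 2.38 and 0.6 TPM at stage 35 (adjusted p = 0.0125), a call lost with the Ueno libraries as separate samples. Of 36 myeloid and immune genes 1 rose (2.78%, under the 3.07% of all models) and 4 fell (11.1%, against 3.56%). The phosphatase ptpn6.S of blood cells was at 0.58 and 0.33 TPM, then 10.6, 2.63 and 3.37 TPM (2.23 ± 0.36, adjusted p = 0.0204). The collagenase mmp13.S overlapped, at 61.9 and 7.46 TPM, then 11.0, 0 and 3.63 TPM (-1.99 ± 0.24, adjusted p = 0.00923), and CXCR2.S (-1.23, also with overlap), cybb.L (-1.02) and spib.L (-0.83) fell.

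Of 24 tested pituitary, thyroid and hormone axis genes 5 rose and 3 fell, and 2 of the 5 were the transthyretin copies. The other 3 rises, given next, were under 1 TPM in both stage 30 libraries. They passed the filter through stage 35 libraries alone and could hardly be called lower. The file held 60 models of this list, and without the filter 5 of 52 rose and 2 fell. The pomc.S gene, which encodes the precursor of corticotropin, was at 0.44 and 0.07 TPM, then 1.84, 1.99 and 0.6 TPM (1.04 ± 0.21, adjusted p = 0.0364). Oxytocin-type oxt.S had 0 TPM in the stage 30 libraries, against 1.17, 5.51 and 0.06 TPM at stage 35 (adjusted p = 0.0255), a call lost under quantile normalization and with the Ueno libraries as separate samples. The steroid 21-hydroxylase cyp21a2.1.L was at 0 and 0.03 TPM, then 1.03, 0.75 and 1.31 TPM (1.00 ± 0.20, adjusted p = 0.0371). The receptor for corticotropin-releasing hormone, crhr1.1.S, was at 9.63 and 6.55 TPM, then 2.44, 0 and 1.70 TPM and fell (-1.83 ± 0.22, adjusted p = 0.0088).

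Glycolysis, glycogen and creatine genes rose in 9 of 54 and fell in 5 (14 and 1 under median-of-ratios scaling, 11 and 3 under quantile normalization). The model g6pc-like.1.L, named after the glucose-releasing phosphatase, was at 59.4 and 28.0 TPM, then 177, 89.0 and 71.8 TPM (1.52 ± 0.27, adjusted p = 0.0251). Stage 35 Taira was highest and no values overlapped. Nuclear genes of oxidative phosphorylation rose in 6 of 99 (6.06%, against 3.07% of all models) and fell in none, with 93 positive and a median of 0.40. The largest of these were uqcrc2.S of complex III (0.98 ± 0.17, adjusted p = 0.0234), ndufa3.L of complex I (0.81 ± 0.15, adjusted p = 0.0307) and the ATP synthase subunits atp5h.L (0.79 ± 0.13, adjusted p = 0.0215) and atp5o.L (0.72 ± 0.13, adjusted p = 0.0301). The count of rises was 29 under median-of-ratios scaling and 6 under quantile normalization. Of 58 ribosomal protein genes limma called 0 (unadjusted p under 0.05 in 8 with a positive and 1 with a negative change), with 52 positive and a median of 0.24, and 4 rose under median-of-ratios scaling. The Taira and Ueno libraries, which differ in clutch and in series, differed more than the stages there: rplp1.L was at 7376 and 14543 TPM, then 8958, 18344 and 17638 TPM (0.29 ± 0.19, adjusted p = 0.35) and rpl23.L at 2259.9 and 4183 TPM, then 2733, 4666 and 4709 TPM (0.22 ± 0.19, adjusted p = 0.482).

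Cell cycle genes fell in 6 of 128 (4.69%, near the 3.56% of all models) and rose in none. The median was -0.30, and 14 of the 128 had a positive change. None was called under median-of-ratios scaling (in TPM 30 were lower with an unadjusted p under 0.05 in limma). The mitotic survivin gene birc5.1.S (-1.2 ± 0.21, adjusted p = 0.027), both copies of cyclin E1, ccne1.S (28.3 and 16.2 TPM, then 14.5, 4.07 and 8.03 TPM; -1.1 ± 0.20, adjusted p = 0.0279) and ccne1.L (-0.94 ± 0.15, adjusted p = 0.0199, with overlap), and the phosphatase cdc25b.L (71.5 and 74.4 TPM, then 39.1, 33.7 and 43.6 TPM; -0.89 ± 0.20, adjusted p = 0.0485) were the named falls. Of 36 oocyte and maternal transcripts 4 fell, sox3.S, sox3.L (-1.08 ± 0.14, adjusted p = 0.0111), otx1.L (-1.14 ± 0.13, adjusted p = 0.00865) and npm3.S (-0.92 ± 0.16, adjusted p = 0.0237, with overlap). Their list summed to 1182 and 1033 TPM at stage 30 and 822, 628 and 629.6 TPM at stage 35. The fall of sox3.S is the same one given above with the neural progenitor genes. Whether RNA of this list was maternal at these stages was not tested. Heat shock and stress genes gave 1 rise and 5 falls of 55, but 4 rises and no fall under median-of-ratios scaling and 2 and 3 under quantile normalization. The falls of the chaperones hsp90ab1.L (901 and 1294 TPM, then 487, 639.9 and 619.5 TPM; -0.96 ± 0.18, adjusted p = 0.0323), hspa8.L (-0.87 ± 0.16, adjusted p = 0.0313) and hsph1.S (-1.03 ± 0.19, adjusted p = 0.0289, with overlap) were not called under that first scaling. The plasma glutathione peroxidase gpx3.L, at 10.1 and 19 TPM, then 105, 53.8 and 85.2 TPM, rose (2.54 ± 0.32, adjusted p = 0.0102). Of 17 clock genes limma called 0 under all 3 scalings (unadjusted p under 0.05 in TPM in 1, with a negative change), and cry1.S (-0.38 ± 0.20, adjusted p = 0.264) and nr1d1.S (-0.01 ± 0.18, adjusted p = 0.967) had the highest levels.

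Several of the steepest changes fell outside these lists. Among the rises, folr4.L of the folate receptor family was at 4.39 and 1.14 TPM, then 209, 28.0 and 19.3 TPM (4.41 ± 0.58, adjusted p = 0.0116), and the heart-type fatty acid-binding protein fabp3.L (Xelaev18012061m) at 4.62 and 2.34 TPM, then 105, 35.0 and 25.5 TPM (3.73 ± 0.29, adjusted p = 0.0041). Both were highest in stage 35 Taira. Among the falls, adhfe1.S (Xelaev18033772m), an iron-type alcohol dehydrogenase, was at 378 and 418 TPM, then 48.9, 52.9 and 58.0 TPM (-2.91 ± 0.15, adjusted p = 0.00116), with almost equal values in the clutches at each stage. The glycolate oxidase hao1.L (Xelaev18026066m) was at 75.1 and 64.7 TPM, then 12.9, 10.5 and 14.5 TPM (-2.37 ± 0.18, adjusted p = 0.0041), having been at 393 and 493 TPM at stage 20. The secreted BMP feedback inhibitor sizzled, szl.L (Xelaev18017689m), was at 18.8 and 12.0 TPM, then 2.64, 0 and 2.82 TPM (-2.44 ± 0.17, adjusted p = 0.00363). These 3 fell to similar levels in every stage 35 library, apart from the 0 of szl.L in the Ueno library.

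The tryptophan-degrading enzyme ido1.L was at 79.3 and 38.4 TPM, then 13.8, 5.13 and 8.89 TPM (-2.37 ± 0.18, adjusted p = 0.00408), and the amino acid transporter slc38a8.L at 65.8 and 20.5 TPM, then 11.1, 2.48 and 3.76 TPM (-2.43 ± 0.16, adjusted p = 0.00361). The secreted angiopoietin-like gene angptl7.L (Xelaev18035194m) was at 57.4 and 10.8 TPM, then 4.61, 0 and 1.72 TPM (-3.02 ± 0.25, adjusted p = 0.00462), the largest fall by the rule used. In these 3, stage 30 Taira was the highest library. That no stage 35 value of angptl7.L, ido1.L or slc38a8.L reached a stage 30 value was required by the naming rule. The lipid transfer gene stard10.S was at 76.3 and 38.5 TPM, then 16.2, 8.80 and 8.11 TPM (-2.12 ± 0.26, adjusted p = 0.00923) and carbonic anhydrase ca7.1 at 15.8 and 12.0 TPM, then 2.54, 2.43 and 3.33 TPM (-1.99 ± 0.18, adjusted p = 0.00501).

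Where the L copy was called, the S copy mostly changed in the same direction, but fewer S copies were themselves called. In 4050 pairs with both copies tested, 81 L copies rose and in 37 of these the S copy also rose, while 76 had a positive change in S. Of 155 pairs with L called lower, S was called lower in 56 and negative in 143, and 0 pairs were called in opposite directions. Over all 4050 pairs the S copy rose in 96 and fell in 150. How many S copies had a positive or negative change over all pairs was not counted. The median change of all tested models was negative, so a negative S copy is common in itself. A fit of the L to S ratio over 4899 pairs called 42 shifts toward L (0.857%) and 23 toward S (0.469%). That count of 65 was 3 with a pseudocount of 0.1, 0 without the clutch block, 2 without stage 30 Taira, 0 without stage 30 Ueno, 35 without stage 35 Taira, 71 without stage 35 Ueno and 0 without the second Ueno library. At an unadjusted p under 0.05 there were 707 pairs in limma. RSEM apportions reads that fit both copies, so the split between close homeologs, and how far they moved alike, is uncertain.

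In 4 of the 5 named pairs that shifted toward L (gpx3, fabp3, rpe65 and ctbs), the L copy started below the S copy. The ctbs shift lay in lower S values, without a clear gain of L. Its L copy was at 0.41 and 0.15 TPM, then 0.94, 0 and 0.44 TPM. Its S copy was at 60.4 and 90.9 TPM, then 19.7, 26.6 and 27.8 TPM. For gpx3 the L copy went from 10.1 and 19 TPM to 105, 53.8 and 85.2 TPM while the S copy went from 336 and 502 to 228, 297 and 299 TPM (ratio change 3.19 ± 0.30 on the log2 scale, adjusted p = 0.0177). For fabp3 the S copy was at 94.4 and 69.8 TPM and then 139, 88.9 and 93.5 TPM, against the steep rise of L given above (3.27 ± 0.40, adjusted p = 0.0273). For rpe65 L was at 2.84 and 1.70 TPM and then 12.8, 2.92 and 3.97 TPM while S fell (2.75 ± 0.45, adjusted p = 0.0479). Toward S, fgg shifted (-3.37 ± 0.30, adjusted p = 0.0177), with a larger change of S than of L. For gc the L copy was listed at 0 in all 5 libraries. The membrane-binding annexin anxa4 had an L copy at 199 to 259 TPM and an S copy that went from 22.7 and 12.9 to 90, 38.4 and 35.5 TPM (-1.89 ± 0.25, adjusted p = 0.0379).

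A term for the stage 35 Ueno library alone called 170 models higher (0.764%) and 779 lower (3.5%) than fitted from the other libraries. Of the 779, 611 were listed at 0 in that library and 682 had a mean stage 35 TPM under 10. At least 10 TPM was reached by 97 of the lower and 31 of the higher calls. The palmitoylation partner golga7.L was listed at 0 there, against 53.1 in stage 35 Taira and 25.4 TPM in the second Ueno library (adjusted p = 0.000877). The adhesion kinase ilk.S was listed at 0 against 13.1 and 21.1 TPM (adjusted p = 0.00545). In the other direction, nop10.Lp, a ribonucleoprotein component of rRNA modification, was at 50.5 TPM against 9.51 and 9.11 TPM, and naa50.S, an acetyltransferase, at 43.4 against 9.24 and 13.4 TPM. None of these 4 is among the genes called between the stages above. The count of 949 ran from 0 without the clutch block to 3211 with a pseudocount of 0.1, so it describes this library under the stated settings only.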

How the data were processed

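The authors deposited 1 table of TPM per gene model for whole J strain embryos, made with BWA 0.7.10 and RSEM 1.2.19 per the submitters' processing notes, from a non-strand-specific polyA protocol per the labels' protocols. Aligner settings are not given in the sources used here, and reads of overlapping or antisense genes cannot be told apart. TPM has the same sum in every library and keeps no depth, so no counting error is given.

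From the deposited TPM, log2(TPM + 1) entered a linear model (limma 3.58.1, R 4.3.3; trended eBayes, Benjamini-Hochberg, adjusted p under 0.05) for models with at least 1 TPM in at least 2 of the 5 libraries. The fit held stages 20, 25, 30 and 35 with stage and clutch as terms. The labels name the clutch. Differences between clutches correlated by 0.83 to 0.913 among stages 20, 25 and 30. With stage 35 they correlated less, by 0.583, 0.612 and 0.72 for stages 20, 25 and 30. Clutch was kept as the block. The stage 35 Ueno libraries were averaged because their values were close in abundant transcripts, though not in weak ones. This was a departure from the planned fit of separate libraries. P-values measure the spread left after the stage and clutch terms, pooled over stages 20, 25, 30 and 35. They do not measure the spread between clutches, and the spread left may be technical.

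Members and the 32 gene lists were chosen with earlier results of these data known, and list entries were edited once the table's symbols were seen. Some models belong to several lists and are counted in each. The text names 15 rises and 15 falls of greatest size, from called, non-overlapping models that have a symbol and a mean of at least 10 TPM in the higher stage, with 1 model per gene (the homeolog with the larger change), up to 4 called members per list with the largest change (or, under 2 calls, up to 2 with the highest TPM), 5 homeolog pairs each way and 5 models each way for the stage 35 Ueno library. Other members named to complete a list's count were chosen after their values were seen. The term for the clutch difference at stage 35, and the fit with separate Ueno libraries, were added after seeing the data. Alternatives covered the block, samples, pseudocount, filter, scaling, trend and each library left out. The scripts were tested on simulated data. The library labelled stage 40 Ueno was not used. Some members that the naming rule picked are not reported here.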

Additional observations from a re-analysis of the deposited data

How the results depend on the processing

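No call of a named gene reversed under the alternatives run, though the small changes of nr1d1.S and rpl23.L, which were not called, turned in sign. The balance of higher to lower calls turned in 8 of 32 lists under at least 1 alternative: skeletal muscle (4 and 10 to 8 and 6), pronephros (6 and 9 to 7 and 6) and heat shock (1 and 5 to 4 and 0) under median-of-ratios scaling, gut (3 and 7 to 5 and 0) and myeloid (1 and 4 to 1 and 0) with all staged libraries, glia (2 and 1 to 0 and 1) with a pseudocount of 0.1, the hormone axis (5 and 3 to 3 and 4) under quantile normalization and glycolysis without stage 30 Ueno, which leaves a lone library at that stage. The counts of 683 higher and 793 lower became 1201 and 384 under median-of-ratios scaling and 380 and 340 with no filter. The lower count was 339 with a pseudocount of 5, 333 with all staged libraries in the fit and 1400 with only the 5 libraries and the replicate block. Without the replicate block, the pairing by clutch, the counts were 2 and 0 in the same samples and 9 and 1 in the 5 libraries alone. Leaving out 1 library gave 10 to 754 higher and 1 to 835 lower, the lowest without stage 30 Taira; without stage 30 Ueno they were 49 and 26, and without the second Ueno library 443 were higher. Of the lists' members, 248 were called, against 4 and 2 without the block (5 libraries, all samples), 156 with all staged libraries, 155 with a pseudocount of 5, 128 with no filter and 3 to 255 with 1 library left out.

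The 949 calls of the stage 35 Ueno library became 3211 and 14 with pseudocounts of 0.1 and 5, 0 with no replicate block, 491 with no filter, 435 with a minimum of 5 TPM, 2368 and 1526 under median-of-ratios scaling and quantile normalization. The 65 homeolog ratio calls became 3 with a pseudocount of 0.1, 15 with no filter, 143 and 0 in the 5 libraries with and without the block, 0 with no block in all samples, 10 with separate Ueno libraries and 0 to 71 with 1 library left out. The term for the clutch difference at stage 35, 0 in limma with 4476 at an unadjusted p under 0.05, gave 35 with a pseudocount of 5, 74 with no filter and 3 under quantile normalization. The cause of these shifts was not tested. With 2 clutches and 3 residual degrees of freedom, and TPM without depth, weak transcripts are the least certain, above all those listed at 0 in the stage 35 Ueno library.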
